A study of Mus musculus with 4 samples.

Results

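The H19 and Igf2 imprinted domain was followed here through 4 member genes, H19, Igf2, Ins2 and Mrpl23, out of 32093 annotated protein-coding and lncRNA genes, and through every CTCF peak summit between 142450000 and 142750000 on chromosome 7 (mm10). The rule names the genes and the window and uses no measured value, although it was drawn up with earlier results of these data known. The conservative peak list, which holds peaks that 2 pools of tissue both supported, placed 20 of its 44672 summits in this 300 kb window. Of these, 4 lay in the control region upstream of H19, taken as 2000 to 4000 bp upstream of the H19 start site.

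The data are chromatin immunoprecipitation followed by sequencing (ChIP-seq) with a CTCF antibody on tissue of the left cerebral cortex. It came from B6CASTF1/J mice, a hybrid of the C57BL/6J and CAST/EiJ strains, which were adult females aged 2 months. There was 1 condition, with no treatment or engineered allele named in the labels, and 4 libraries: 2 technical replicates each of pool I and pool J, each pool made of 4 cortex biosamples. The libraries of a pool were merged before peaks were called, so each pool gives 1 value per peak and nothing was compared between conditions. Bulk tissue gives 1 signal over all cells and both parental copies, so binding in more cells, on more copies or more strongly per cell cannot be told apart. The lists hold no expression values, so the labelled tissue was not checked against marker genes. Parental alleles were not analysed here.

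H19 encodes a long noncoding RNA expressed from the maternal copy, and Igf2 encodes insulin-like growth factor 2, a growth factor expressed mainly from the paternal copy in most tissues. The genes share enhancers that lie beyond H19 as seen from Igf2. Between them, the imprinting control region is methylated on the paternal copy and binds CTCF, a zinc finger DNA-binding protein, on the unmethylated maternal copy, where it acts as an insulator that keeps Igf2 from the enhancers. In brain, Igf2 is also known for expression from both copies in choroid plexus and meninges. CTCF also halts the loop extrusion carried out by cohesin, in a way that depends on the strand of its motif.

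The control region carried 4 summits, and the RefSeq annotation of the same genome places 4 CTCF sites there, named m1 to m4. Each summit fell on or next to a different one of them, so the summits carry those names here. The reference sequences below, from GRCm38.p6, are shown because the results on motif and CpG content turn on their letters. They read 5′ to 3′ on the strand of the best motif stretch, and the capitals mark that 20 bp stretch.
m4: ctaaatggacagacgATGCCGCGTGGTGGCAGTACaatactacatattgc
m3: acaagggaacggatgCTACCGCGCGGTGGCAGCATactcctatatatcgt
m2: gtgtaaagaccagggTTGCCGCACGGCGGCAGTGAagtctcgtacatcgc
m1: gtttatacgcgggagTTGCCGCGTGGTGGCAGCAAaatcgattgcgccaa
The printed bases were chr7:142580291-142580340 for m4, chr7:142580746-142580795 for m3, chr7:142581772-142581821 for m2 and chr7:142582016-142582065 for m1, all on the minus strand, which is also the strand of H19 and Igf2. These stretches are those at the conservative summits. At the pool J summit of m3 a plus strand stretch scored slightly higher (5.14 against 4.99), as one did at the pool I summit of m2 (-1.02 against -3.48), and none of these passed the motif threshold given below. All 4 stretches lay inside the annotated CTCF sites. The summits of m3 and m2 were inside as well, while those of m4 and m1 lay 10 and 8 bp outside.

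The 4 stretches shared the letters TNCCGCNNGGNGGCAG, in which N stands for any base and 12 letters are fixed. The core CCGC of these shared letters holds a CpG, the dinucleotide whose cytosine can be methylated. A search of both strands found the 12 letters within 60 bp of 29 of the 44672 conservative summits, or 0.0649%, of which 25 lay elsewhere in the genome. In windows of the same length centred 1000 bp from each summit toward higher coordinates, 2 held them. The 4 printed sequences were 50% to 66% identical over 50 bp (median 53%, 6 pairs), against a median of 36% over 55 pairs of domain sites outside the control region and outside Ins2. The search letters were taken from the 4 sites themselves, so their presence there is no result.

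The nearest sites on either side of the control region follow, since their stretches lay on the other strand.
s7: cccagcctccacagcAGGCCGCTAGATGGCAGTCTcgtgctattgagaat
s12: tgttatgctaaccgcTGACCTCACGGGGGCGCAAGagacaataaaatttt
Site s7 was read from chr7:142538084-142538133 on the plus strand in an intron of Mrpl23, and s12 from chr7:142610735-142610784 on the plus strand in an intron of Gm33148, a lncRNA gene. Sites outside the control region are numbered s1 to s20 by their order along the window, in which the control region takes the places between s7 and s12.

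The control region summits lay below the median height of the conservative list. The authors' signal value, in the peak caller's own unit, was 130 at m4 (summit at 142580291), 226 at m3 (142580780), 206 at m2 (142581819) and 130 at m1 (142582018). The strongest, m3, exceeded 43.4% of conservative peaks and the weakest, m1, exceeded 21.0%. In the pools' own, longer lists the strongest ranked higher: m2 exceeded 68.4% of pool I's peaks and m3 56.1% of pool J's. Their median was 168, below the median of 269 over all conservative peaks, while the 16 other domain summits ranged from 131 to 576 with a median of 363. Among those 16, s3, at 131, lay within the range of the control region and the others above it. The 4 values summed to 692, which is below the 751 of the highest single summit in the whole list.

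**Figure D1:**
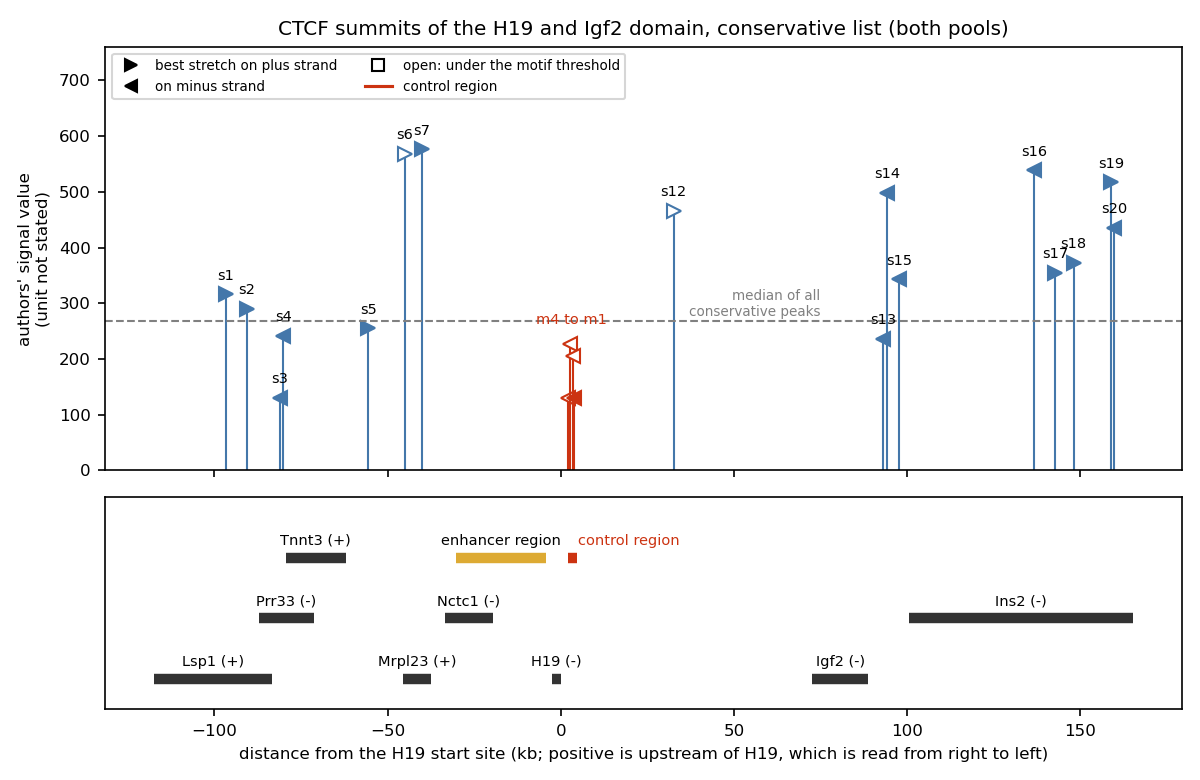
Signal value of each conservative summit (vertical axis, authors' unit) against its distance from the H19 start site in kb, with genes, the annotated enhancer region and the control region drawn to scale underneath. Triangles point along the strand of the best motif stretch and are open where it missed the threshold; the 4 control region summits sit below the dashed median of 269, and the highest summits, s6 and s7, are at Mrpl23.

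The 4 summits stood close together. The gaps between neighbouring summits were 489 bp from m4 to m3, 1039 bp from m3 to m2 and 199 bp from m2 to m1, for a span of 1727 bp. The median gap between neighbouring conservative summits was 21756.5 bp, and no gap in the list was shorter than 199 bp. Among 44612 sets of 4 consecutive summits on the autosomes and X, 2 lay within 1727 bp. One was this region and the other was on chromosome 12 between 113221406 and 113222974, 36260 bp from the nearest gene start, that of Tmem121, with a total signal of 1336. The span was taken from the region itself, so this count is a description.

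Runs of summits with gaps of at most 1000 bp gave another view, because the m3 to m2 gap exceeded that limit. The control region then formed 2 runs of 2 summits, and 1536 of 43059 runs held at least 2. The runs with most summits lay near Tmem121 (6 summits), Gm37419 on chromosome 16 (4), Gm20163 on chromosome 8 (4), AI464131 on chromosome 4 (4) and, by total signal the first of the 67 runs of 3, Ap5b1 on chromosome 19. With gaps of up to 1100 bp, a limit chosen after the gaps were seen, the control region was 1 run of 4, and 10 of 42834 runs held as many.

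All 4 summits were present in every one of the 8 lists, at the top score of 1000. So were all 20 domain summits present in the 8 lists, and 96.9% of all conservative peaks overlapped a pool J peak. The lists were made from the same libraries, so presence in all of them is not separate support. The share of all peaks at the top score was not counted. m2 and m1 shared 1 interval, 142581668 to 142582170, in the conservative list and another in the pool I list, whereas pool J gave each its own interval. The summits of the pools lay close to each other but not on the same base. Pool I and pool J peaked at 142580310 and 142580296 for m4, at 142580784 and 142580766 for m3, at 142581857 and 142581819 for m2, and at 142582067 and 142582044 for m1.

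Both pools were read separately at each site. Pool I and pool J gave signal values of 81.3 and 45.5 at m4, 144 and 79.6 at m3, 155 and 50.9 at m2, and 76.8 and 26.7 at m1. Pool I was higher at all 4, as it was at all 20 domain summits. The order of the 4 differed, since m2 was highest in pool I and m3 in pool J. Over all conservative peaks the log2 ratio of the pool I value to the pool J value had a median of 1.09 (SD 0.39), so pool I values were higher at most peaks of the genome too. At the control region the ratios were 0.84 for m4, 0.86 for m3, 1.61 for m2 and 1.53 for m1 (median 1.19, SD 0.42, n = 4 summits). The m4 and m3 pair thus lay below the genome median and the m2 and m1 pair above it. Peaks with signal values in the range of these 4 had a median ratio of 1.33 (SD 0.29, n = 9978). The ratios of m4 and m3 lay below that median and those of m2 and m1 above it.

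Of the 20 domain summits, 0 had a pool ratio more than 2-fold away from the median of all conservative peaks, against 0.47% of those peaks. With so low a share, a count of 0 among 20 cannot tell the domain from other peaks. The largest departure in log2 was 0.94 at s3, just under the 2-fold limit. The domain ratios ran from 0.62 at s6, the Mrpl23 promoter, to 2.03 at s3, with a median of 1.00 (SD 0.34). At s3, in an intron of Prr33, pool I read 108 and pool J 26.5. At s6 the values were 348 and 226.

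**Figure D2:**
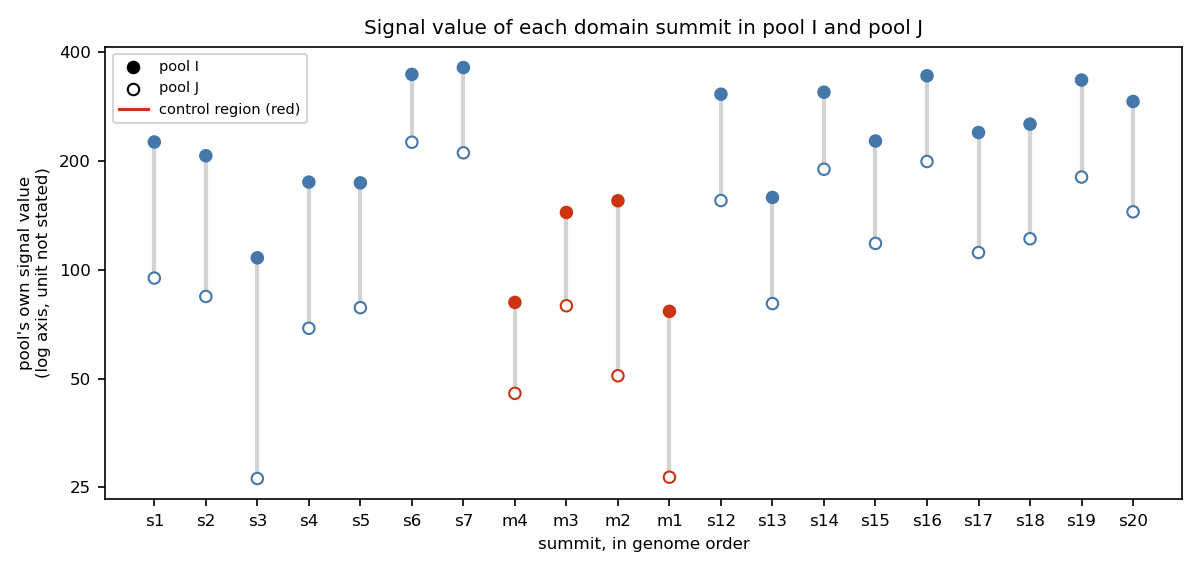
Signal value in pool I (filled) and pool J (open) for each domain summit in genome order, on a log axis. Pool I is higher at all 20, the lines are longest at s3, m2 and m1, and m1 and s3 have the lowest pool J values, 26.7 and 26.5.

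The conservative summits of the domain were found again in each pool's own list. All 20 overlapped a pool I peak, against 100% of conservative peaks after rounding (44655 of 44672), and all 20 overlapped a pool J peak, against 96.9%. Both shares were near the background, and the conservative list was made from both pools.

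To place a CTCF motif at each summit, a 20 bp matrix was trained on the 1000 peaks of highest conservative signal on most of the even-numbered autosomes, which leaves chromosome 7 out. Its favoured letters were TGGCCACCAGGGGGCGCCAG. A stretch counted as a match when its log2 odds score passed 9.06, a level that 1% of flanking windows passed when windows over a ranked peak were left out, with its centre within 50 bp of the summit on either strand. The domain held a match at 15 of 20 summits, against 77.9% of all conservative peaks, which is near that background. In the control region 1 of 4 summits held a match and outside it 14 of 16 did. With all flanking windows kept, the level rose to 12.1, and 0 of 4 control region summits, 11 of 20 domain summits and 66.9% of all peaks passed it.

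The scores of the control region were 9.04 at m4, 4.99 at m3, -3.48 at m2 and 11.1 at m1. m4 missed the threshold by a small amount and m1 passed it. The score of m2 was above that of 3.42% of conservative peaks, and that of m1 above 28.7%. With the motif learned on odd-numbered autosomes other than chromosome 7 in place of even ones, m3 passed and the others did not. Which of the 4 counted as a match thus depended on the training set. At the level that 5% of flanking windows passed, 3 of the 4 passed, against 19 of 20 domain summits and 88.9% of all conservative peaks. The domain summit that still missed it was m2. A score under the threshold says how unlike the strongest peaks the letters are, and nothing about the factor.

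Position by position from 1 at the 5′ end of the stretch, 8 letters differed from the favoured ones at all 4 sites. At 4 of these positions the sites shared 1 letter, G2T, A6G, G16A and C17G, where the motif's letter comes first, and at the other 4 positions the sites varied among themselves. Of those shared letters, A6G was the one seen least among the 34789 matching peaks, of which 83.8% had the favoured A and 5.7% had G at position 6. At position 16 the site letter A was in fact commoner, at 50.5% against 45.3%. m4, m3 and m2 each had 10 of 20 letters as favoured and m1 had 12, while matching peaks had a median of 13.

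The control region stretches were rich in CpG. All 4 had 2 or more CpG in their 20 bp, against 11.6% of all conservative peaks, with 2 at m4 and m1 and 3 at m3 and m2. In the 16 other domain sites, 2 had as many: s6 with 3 and s12 with 2. In the 101 bp around the summit the control region held 5 to 7 CpG (median 6), and the other domain sites 0 to 12 (median 1). Of the 25 peaks elsewhere that held the shared 12 letters, all 25 passed the motif threshold, against 77.9% of all conservative peaks. The search letters overlap the motif, so passing was favoured by the search. Of the 25, 3 had 2 or more CpG in the best stretch, against 11.6% of all conservative peaks, and their median signal was 464. The search letters themselves hold a CpG, while the median over all conservative peaks was 0 in the stretch. The shares are thus not like for like, and nothing is read from them. Methylation was not measured in these data.

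**Figure D3:**
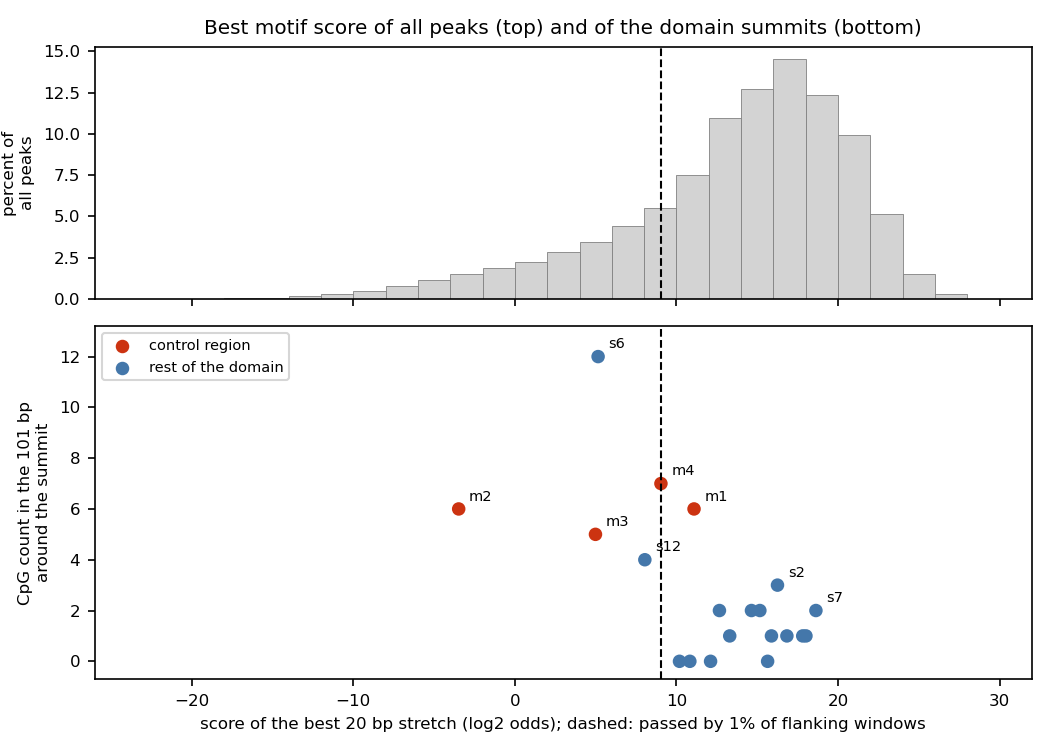
Top, distribution of the best motif score over all conservative peaks in percent; bottom, the 20 domain summits by motif score (log2 odds) and by CpG count in 101 bp. The dashed line is the threshold of 9.06; the 4 control region sites lie at 5 to 7 CpG with scores from -3.48 to 11.1, and 14 of the other 16 lie right of the line.

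H19 itself (ENSMUSG00000000031.16, 142575529 to 142578143, minus strand) had no summit of the conservative list within its body or within 1000 bp of its single annotated start. Its nearest was m4, 2148 bp upstream. A weaker site, w10, lay nearer (w marks sites that the conservative list does not hold), at 142579268 and 1125 bp upstream in the pool I list, with a score of 573, a signal value of 36.2 and a motif score of 13.8 on the minus strand. Pool J listed w10 only before thresholding, with a signal of 7.7 and a score of 303. The motif score of w10 was thus higher than that of any control region site, while its signal was lower than any of theirs in both pools.

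Igf2 (ENSMUSG00000048583.16, 142650766 to 142666816, minus strand) lay whole inside a stretch without conservative summits. That stretch ran 60509 bp from s12 to s13, longer than 76.6% of gaps between neighbouring summits in the genome. From its 5 annotated starts, s13 was the nearest summit in every case, 4448 to 13798 bp upstream. The ranked list of pool I held w13 at 142659400, 89 bp downstream of an Igf2 start, with a signal of 10.4 and a score of 120, and no other list held it. Between s12 and Igf2, w12 appeared in 2 ranked lists with a signal of at most 19.2.

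Just beyond the upstream end of Igf2 stood a group of 3 summits on the minus strand. Signal values were 236 at s13 (142671264), 499 at s14 (142672336) and 343 at s15 (142675881). s14 exceeded 82.5% of conservative peaks. All 3 had a motif match, as did 77.9% of all conservative peaks and m1 in the control region. They held 0 to 2 CpG in 101 bp, near the median of 1 over all conservative peaks, where the control region sites held 5 to 7.

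Ins2 (ENSMUSG00000000215.11, minus strand), which encodes insulin 2, one of the mouse insulins, is annotated from 142678656 to 142743381 because of long transcripts that start far upstream. Its cluster of starts near 142679726 had s15 as nearest summit, 3652 to 3845 bp downstream, beyond the end of the gene. The start at 142699510 had its nearest summit, s16, 15363 bp upstream, and that at 142743381 had s20, 5416 bp downstream. No Ins2 start had a conservative summit within 1000 bp.

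The long Ins2 transcript spanned 5 summits, with signal values of 538 at s16, 354 at s17, 373 at s18, 517 at s19 and 435 at s20, all above the genome median. All 5 passed the motif threshold, and their sequences resembled each other, for which those in introns are shown.
s17: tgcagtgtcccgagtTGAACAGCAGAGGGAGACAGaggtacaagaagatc
s18: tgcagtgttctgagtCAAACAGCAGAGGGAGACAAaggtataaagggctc
s19: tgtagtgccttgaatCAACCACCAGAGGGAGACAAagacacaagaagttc
s20: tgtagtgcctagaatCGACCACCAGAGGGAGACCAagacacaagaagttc
They were read from chr7:142720910-142720959, chr7:142726189-142726238 and chr7:142737108-142737157 on the plus strand and from chr7:142737938-142737987 on the minus strand. Over 50 bp, the 5 sites were 66% to 94% identical (median 74%, 10 pairs), with s19 and s20 the closest pair although they lay 829 bp apart on opposite strands. The median identity of the Ins2 sites was 82.5% over the 20 bp stretch and 74% over 50 bp, and that of the control region sites was 75% and 53%.

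The 5 stretches shared the letters ANCANCAGAGGGAGAC, of which 14 are fixed. These were found on either strand at 39 conservative peaks, or 0.0873%, of which 34 lay elsewhere, and in 0 of the windows 1000 bp away. One of the 34 lay at 142799634 on the same chromosome, just outside the window, with a signal value of 577. These letters can hold no CpG, since each N stands between A and C, and they leave few bases of a 20 bp stretch free. That 0 of the 34 had 2 or more CpG in the best stretch, against 11.6% of all conservative peaks, thus largely follows from the search and is no result. As above, the letters were taken from the sites themselves.

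Mrpl23 (ENSMUSG00000037772.13, 142532686 to 142540747, plus strand) encodes a protein of the large subunit of the mitochondrial ribosome and marks the far side of the enhancers from H19. It held the strongest pair of summits in the window. The first, s6, lay 46 bp from one of its starts with a signal value of 568, above 92.9% of conservative peaks, and the other, s7, lay in an intron at 142538095 with 576, above 93.8%. Their letters differed in kind. s6 scored 5.15 without passing the motif threshold in a window of 76.2% G and C with 12 CpG, whereas s7 scored 18.6 with 2 CpG.

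Of the 4 member genes, Mrpl23 was the 1 with a conservative summit within 1000 bp of a start, against 20.8% of protein-coding genes, a count over few genes. At 5000 bp all 4 had one, against 38.8%. H19, a lncRNA gene, is outside that background of protein-coding genes. Igf2 and Ins2, with 5 and 8 annotated starts, had more places where a summit could count than a gene with 1 start. Among the neighbours, Tnnt3, which encodes the troponin T of fast skeletal muscle, had s4 at 829 bp upstream of its start with a signal value of 242. Lsp1, an actin-binding protein gene of leukocytes, held s1 and s2 in its introns at 316 and 290. Prr33 held s3 and s4 at 131 and 242.

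Besides the gap at Igf2, long ones lay from s15 to s16 (38992 bp, longer than 65.8% of gaps) and at the enhancers. From s7 to m4, 42196 bp held no conservative summit, longer than 67.9% of gaps, and this stretch covered the lncRNA gene Nctc1, the RefSeq enhancer region at 142547916 to 142573912 and the H19 body. Weaker sites did lie there. In pool I's list w6, w7 and w8 had signal values of 33.5, 42.2 and 35.5, and in pool J's list w6 and w7 had 14.8 and 16.4. w7 lay inside an annotated VISTA enhancer. The ranked list of both pools gave w6 an IDR of 0.181 and w7 one of 0.0859, over the authors' limit of 0.05. The IDR is the estimated proportion of peaks, at that rank or higher, that would not be found again in a replicate.

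In all, 17 weak sites joined the 20 conservative summits when the 8 lists were merged. Of these, 7 were in at least 1 thresholded list and 10 in ranked lists only. Pool I's list held 7 of them, pool J's list 2 and the optimal list, from the pooled reads, 1. That one, w1 at 142457402, had a signal of 76.7 and lay 3407 bp upstream of a Lsp1 start.

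**Figure D4:**
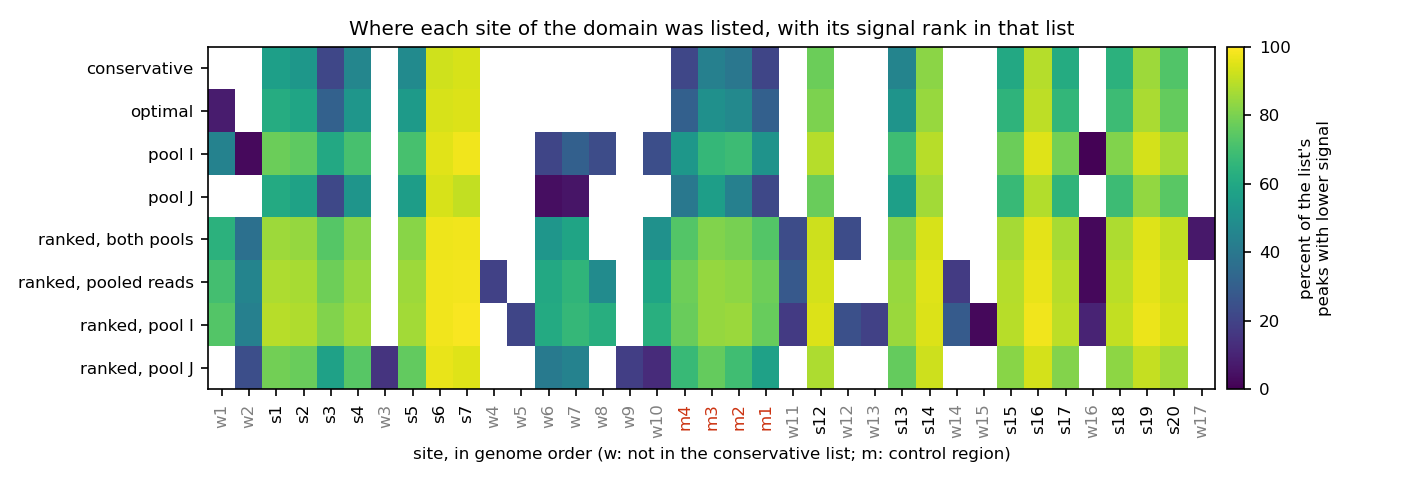
Every site of the domain in genome order (horizontal axis) in each of the 8 lists (vertical axis), coloured by the percent of that list's peaks with a lower signal value; white means not listed. The 20 conservative summits, control region included, are filled in all 8 rows, and the 17 weak sites in 1 to 6 of them.

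Strands of the best stretches divided the domain. s5, s6 and s7 lay on the plus strand, m4 to m1 on the minus strand, s12 on the plus strand, and s13 to s16 on the minus strand. Stretches on the plus strand followed by one on the minus strand face each other, and this arrangement enclosed the enhancers and H19 (s7 to m4) and enclosed Igf2 (s12 to s13), while m1 and s12 faced away from each other. Of the 19 neighbouring pairs of the window, 4 converged, 3 diverged and 12 lay on the same strand. Over all 44652 neighbouring pairs 23.4% converged, and the count in the window was near this share. Among 5215 pairs with gaps of 40 to 65 kb 24.8% did. The window's pairs with such gaps, s7 to m4 and s12 to s13, both converged. That band leaves out the same-strand pair s15 and s16, 38992 bp apart, and so few pairs allow no comparison of shares. The stretches at s6, m4, m3, m2 and s12 missed the motif threshold, so their strands are those of the best-scoring letters only, and those of m3 and m2 turned at 1 pool's summit each.

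The window as a whole held many summits for its length. Its 20 compared with a median of 4 over 84220 overlapping windows of 300 kb, taken every 30 kb, and it exceeded 98.2% of them. In the pool I list it held 27 against a median of 7, above 93.8% of windows, and in the pool J list 22 against 5, above 97.6%.

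Genes of insulin and IGF signalling elsewhere in the genome were counted in the same way, from a list of 20 that covers ligands, receptors, binding proteins, substrates and mRNA-binding proteins of the Igf2 transcript. A conservative summit lay within 1000 bp of a start in 4 of 20, against 20.8% of protein-coding genes, which is near that background. Within 5000 bp it was 14 of 20 against 38.8%, so the closeness to the background held for the narrower window. Among the binding proteins, which hold IGFs outside the cell, Igfbp7 had a signal value of 386 and Igfbp4 one of 267. Irs1, an adaptor phosphorylated by the insulin and IGF1 receptors, had 172, above 32.8% of conservative peaks. The remaining one, named for completeness after its value was seen, was the receptor gene Igf1r, above 19.3% of conservative peaks. Grb10, an imprinted adaptor that binds these receptors, and the ligand gene Igf1 had none.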

How the data were processed

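CTCF ChIP-seq peak lists of 4 libraries (pool I and pool J, 2 technical replicates each) were used as deposited. Per the deposited notes, the authors made 8 lists on mm10: 4 thresholded by the irreproducible discovery rate (IDR) and 4 ranked lists, from pool I, pool J, both pools as replicates, and the pooled reads. The score deposited by the authors is a scaled IDR with a top of 1000, and its lowest thresholded value, 540, corresponds to an IDR of 0.05. The signal value deposited by the authors is in a unit that is not stated. The authors give the IDR itself as −log10, in the ranked lists only. Not given in the sources used here are the aligner, the peak caller and the control. The lists carry no counts, so depth is unknown and no counting interval is given.

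Inputs of the ranked list of both pools were matched to pools by identical intervals (84.5% of first inputs to pool I, 61.8% of second inputs to pool J). Summits were joined across lists within 100 bp. Genes came from GENCODE M21 basic, sequences and functional elements from RefSeq (GRCm38.p6). The motif code was tested on simulated data. Alternatives were other lists, IDR limits, windows, motif settings and training peaks. There was no test, as 1 condition and 2 pools allow none. Members, gene lists and windows were chosen with earlier results of these data known. Named were the 4 members, other window genes with a summit in the gene or within 10 kb upstream (clone symbols passed over, except where they host a site), the 3 strongest and alphabetically first 2 without a summit of the IGF list, and the 5 largest runs of summits. Scripts ran on pandas 2.3.3, numpy 2.4.6, pysam 0.24.0, SciPy 1.17.1 and matplotlib 3.10.9 under Python 3.11.15.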

Additional observations from a re-analysis of the deposited data

How the results depend on the processing

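Of 39 alternative values, 12 moved, 0 reversed and 27 did neither. A count moved when it changed by over 1.5 times, and a ratio when it changed by over 1 SD. A share moved when it left the 95% binomial interval of the main one, which is narrow over so many windows or peaks. For windows that interval takes overlapping ones as separate. The 4 control region summits were counted under every list tried (optimal, pool I, pool J), at an IDR of at most 0.01 and in a region 1 to 5 kb upstream. The share of windows with fewer summits than the domain, 98.2%, became 96.1% for a window of 100 kb centred on the control region and 96.6% for 1 Mb. For 300 kb it was 97.5% in the optimal list, 93.8% in the pool I list and 97.6% in the pool J list. The strongest control region summit exceeded 43.4% of peaks in the conservative list, 50.3% in the optimal list, 68.4% in the pool I list and 56.1% in the pool J list, which differ in length. Motif matches in the domain fell from 15 to 9 at the threshold that 0.1% of flanking windows passed, where 0 of the 4 control region sites and 56.1% of all peaks matched. With all flanking windows kept, 11 of 20 domain sites and 0 of 4 control region sites matched. With the motif learned on peaks of middle strength, an alternative chosen after seeing the data, 11 of 20 domain sites, 0 of 4 control region sites and 72.8% of all peaks matched. Genes with a promoter summit rose from 1 to 4 of the 4 members and from 4 to 14 of the 20 IGF genes at 5000 bp, where 38.8% of protein-coding genes had one. The member H19 is a lncRNA gene and not part of that share. The longest run of summits in the control region went from 2 to 4 with gaps of up to 1100 bp. No paired analysis was possible because the libraries of each pool were merged before peak calling and no result came from a test. With 2 pools, the spread between animals is not known.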
